A study of Mus musculus with 8 samples.

Results

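The 100 transcripts described here were measured clearly in mouse salivary gland and not well above background in any salivary gland tumor of the series. They were selected on measured values. A transcript qualified when the scanner software marked its probe as well above background on both arrays of normal gland (N1 and N2) and both arrays of tumor-adjacent gland (NAT1 and NAT2), and on none of the 4 tumor arrays (T1 to T4). Of the 58141 ASMM10P probes on the array, 31808 were well above background on all 4 gland arrays, and 362 of these (1.14%) were so on no tumor array. The 100 with the highest mean level in N are the members, and the other 262 served as their nearest comparison. All levels are log2 spot intensity minus the 75th percentile of the same array, so that a level of 0 equals that percentile and a difference of 1 is a 2-fold change. Because the N, NAT, and T arrays chose the members, the gap between gland and tumor is given as a description without a test.

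The tumors arose in mice carrying the CRTC1-MAML2 fusion, the gene fusion of human mucoepidermoid carcinoma, as a transgene (LSL-CM) made in FVB/J eggs, driven by the ubiquitous CAG promoter and switched on by Cre. Cre came from the MMTV-Cre line, which in salivary glands expresses it in ductal cells. N1 and N2 were glands of littermates without the fusion transgene, described in the study as mCre-CM(–), which carry MMTV-Cre alone. By the study's text, NAT1 and T1 came from 1 mouse and NAT2 and T2 from another, while T3 and T4 came from separate mice. The source label of NAT2 places it beside the first tumor, and that of T2 calls it adjacent gland, against their titles. Titles and tissue labels were followed here, and the conflict leaves the mouse of NAT2 and the tissue of T2 less certain than those of the other samples. The age of the mice, the gland sampled, and which of the transgenic lines was used were not given for these samples.

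Salivary glands consist largely of acinar cells, which make and release the water, enzymes, and mucins of saliva, and of ducts that modify this fluid on its way to the mouth. Myoepithelial cells, fibroblasts, vessels, nerves, and immune cells complete the tissue. Mucoepidermoid carcinoma holds mucous, intermediate, and squamoid cells in place of this architecture. In whole tissue, fewer cells of a type and less RNA per cell cannot be told apart. The files used here pair none of the 100 probes with a gene name or a sequence, so neither the roles of the transcripts nor the levels of cell type markers are given, and the members are named by probe.

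On the arrays of N, the members were of moderate brightness. Ordered by mean level in N, they took places 7306 to 20426 among the 58141 probes, with a median place of 17330, and 33 of the 100 were above the 75th percentile. Each of the 7305 brighter probes was well above background on at least 1 tumor array. Probe brightness also depends on the probe itself, so this order is one of signals rather than of transcript abundance. Among probes well above background on all 4 gland arrays, 0 of the 5000 brightest, 9 of the next 4997, 27 of the 4998 after these, and 56 of the 4995 in the fourth set of places met the rule, or 0%, 0.180%, 0.540%, and 1.12%. The share then rose to 2.05% (102 of 4968) and 2.38% (112 of 4716). A dim probe needs a smaller drop to fall under the detection limit, which the share in each set of places contains. In the opposite direction, 2199 probes were well above background on all 4 tumor arrays and on no gland array, where 69.8% to 76.1% of spots were well above background on the tumor arrays and 57.6% to 65.9% on the gland arrays.

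**Figure D1:**
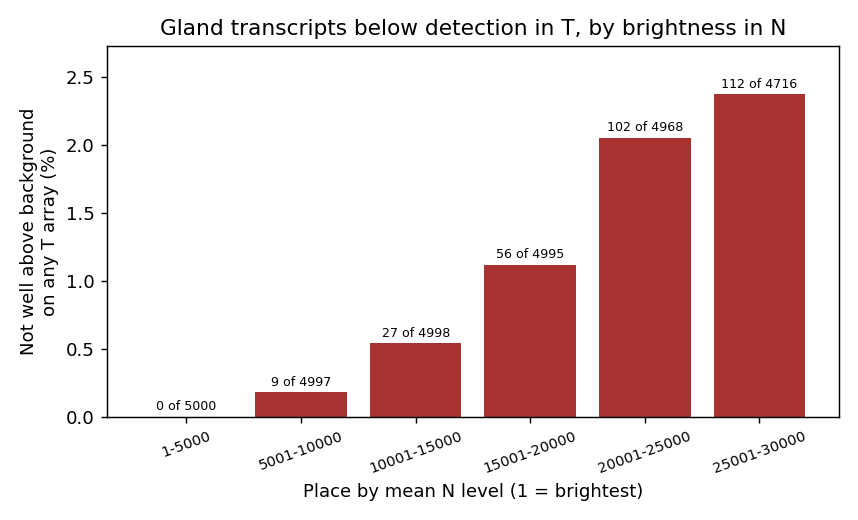
Bars show the percentage of gland-detected probes that were not well above background on any T array, in sets of 5000 places by mean N level from the brightest; the numbers above each bar are the probes that met the rule and the probes well above background on all 4 gland arrays. The share was 0% among the brightest and 2.38% in the dimmest set plotted.

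The levels of the members stood apart from tumor background on each array. The median member level was -0.37 in N1, -0.27 in N2, -1.72 in NAT1, and -0.54 in NAT2. In T1 to T4 the measured values had medians of -6.17, -5.66, -5.64, and -6.21. The values in T lie at or near the lower end of what the arrays can measure and serve only as bounds.

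**Figure D2:**
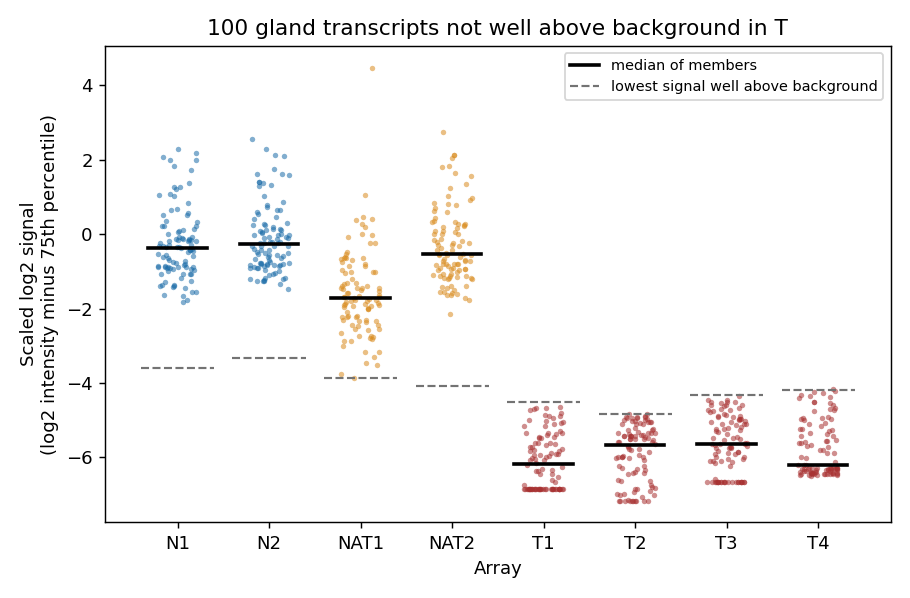
Each point is 1 of the 100 members on 1 array, as scaled log2 signal; solid bars mark the median over members and dashed lines the lowest signal well above background on that array. The gland medians lie between -1.72 and -0.27, NAT1 is the lowest of the 4, and rows of points at the bottom of the T columns are spots at or near the smallest processed signal.

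Before scaling, the median intensity of the members was 110 units in N1, 85.6 in N2, 54.8 in NAT1, and 131 in NAT2, against 3.46, 6.90, 5.42, and 2.93 in T1 to T4. In all 100 members the lowest of the 4 gland intensities exceeded the highest of the 4 tumor intensities, as was the case for 10.7% of all probes tested. The ratio of the lower N intensity to the highest tumor intensity ran from 3.20 to 80.1, with a median of 10.8. The detection flags that chose the members were set on these unscaled intensities, so nothing is read from this count.

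For each member a lower bound on the fold change was set, which holds for this processing only. Each tumor array was set at the higher of the member's own signal and the lowest signal well above background on that array. By this measure, the members were at least 9.94-fold to at least 102-fold higher in N than in T, with a median of at least 15.1-fold. This median was 3.92 on the log2 scale, and it was 1.96 with normexp background correction. That setting adds an offset of 50 units to each intensity, which by itself narrows the fold changes of dim spots. The bound was at least 16-fold for 47 members and at least 64-fold for 6. The corresponding bound for NAT over T ran from 3.50-fold to 195-fold, with a median of at least 10.3-fold over the 2 NAT arrays, which lay apart. On NAT2 alone it ran from 4.97-fold to 148-fold with a median of 15.2-fold, and on NAT1 alone from 1.52-fold for ASMM10P013029 to 491-fold for ASMM10P027181 with a median of 6.69-fold.

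The 10 members with the highest N level are given first. ASMM10P051820 measured 2.28 in N1, 2.12 in N2, 0.45 in NAT1, and 2.74 in NAT2. Its T signals measured -6.25, -5.03, -5.28, and -6.44, and it was at least 102-fold higher in N than in T. N1, N2, and NAT2 were close together for this transcript, NAT1 was lower by more than 2-fold, and no tumor value came near the gland values. ASMM10P006959 measured 2.00, 2.30, 0.37, and 2.13 in N1, N2, NAT1, and NAT2, with a bound of at least 98.1-fold. ASMM10P021244 measured 2.08, 2.09, 0.40, and 2.12, with a bound of at least 93.9-fold. ASMM10P038558 measured 2.18, 1.76, 0.18, and 2.05, with a bound of at least 86.6-fold. In each of these, NAT1 was again the lowest gland array and NAT2 lay within or just outside the range of the N arrays.

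ASMM10P004940 measured 1.98, 1.62, -0.23, and 1.82 on the same 4 arrays, with a bound of at least 77.0-fold. ASMM10P040401 measured 1.83, 1.36, -0.24, and 1.64, with a bound of at least 66.8-fold. ASMM10P029217 measured 1.71, 1.31, 1.06, and 1.56, with a bound of at least 63.1-fold. The last of these differed from the rest of the 10 in that NAT1 was only 0.46 below the N mean. ASMM10P014941 measured 1.27, 1.61, -0.70, and 1.23, with a bound of at least 60.0-fold. ASMM10P015631 measured 1.26, 1.58, -0.01, and 1.34, with a bound of at least 59.1-fold. ASMM10P048606 measured 1.06, 1.30, -1.01, and 0.82, with a bound of at least 50.2-fold. Across all 10, NAT1 was the lowest gland array, where NAT1 lay below both N arrays for 42.4% of all probes tested. The gland values did not overlap those of the tumors, as for 10.7% of all probes tested before scaling. The detection rule chose the members for this gap, so nothing is read from it.

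**Figure D3:**
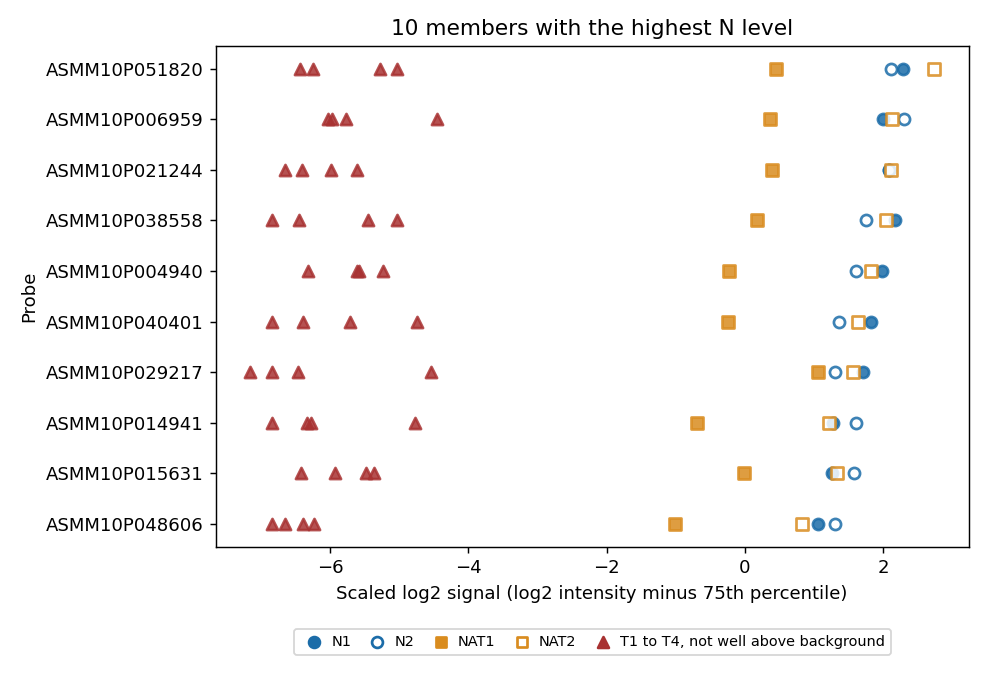
Each row is 1 of the 10 members with the highest N level, with the scaled log2 signal on the horizontal axis; circles are N, squares NAT, and triangles the 4 T arrays, none of which was well above background. Filled squares (NAT1) lie to the left of the other gland symbols, by as little as 0.46 below the N mean for ASMM10P029217.

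At the lower end of the list, the last members were ASMM10P045957, ASMM10P044969, and ASMM10P058177, with mean N levels of -1.13, -1.15, and -1.15. The first transcripts left out were ASMM10P054712, ASMM10P048429, and ASMM10P043086, with -1.16, -1.16, and -1.20. No gap in level separated the 100 from the other 262.

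The term undetected holds for the stricter of the scanner software's flags. That flag, well above background, asks for a signal that exceeds the spread of the background by a set multiple, while a looser flag asks only that the spot be positive and significantly different from its background. By the looser flag, 62 members were measured in T1, 90 in T2, 76 in T3, and 55 in T4. It was met by 38 members on all 4 tumor arrays, by 29 on 3, by 13 on 2, by 18 on 1, and by only 2 on none. Negative control spots met it at 2.92%, 2.92%, 4.22%, and 3.57% on T1 to T4. Likewise, 67, 97, 81, and 67 members in T1 to T4 lay above the 95th percentile of the 308 negative control spots of the array. No member lay above the highest negative control spot on any tumor array.

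**Figure D4:**
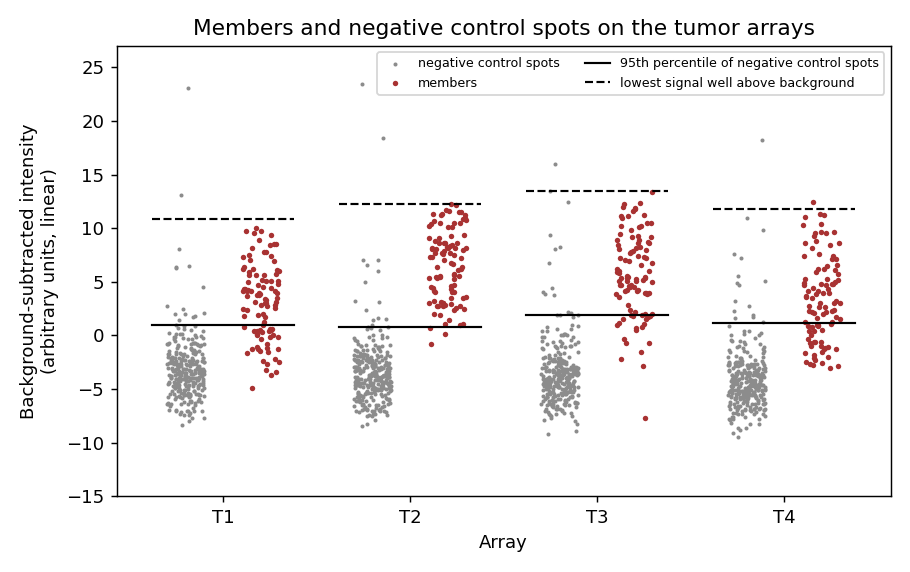
Points show the background-subtracted intensity (linear, arbitrary units) of the members in red and of the 308 negative control spots in gray on each T array; 2 control spots lie outside the plotted range. Solid lines mark the 95th percentile of the control spots, above which 67, 97, 81, and 67 members lie, and dashed lines mark the lowest signal well above background, from 10.9 in T1 to 13.5 in T3.

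ASMM10P028774 came nearest to detection. Its level was -4.63, -4.99, -4.68, and -4.17 in T1 to T4, against -0.17 in N1, -0.95 in N2, -0.97 in NAT1, and -0.23 in NAT2. Its T4 intensity, 12.01 units, was above the lowest intensity well above background on T4, 11.8, but the spot itself did not carry the flag. The next nearest were ASMM10P016981 and ASMM10P041982, both on T2, where they measured -4.83 and -4.84 against a limit of -4.83. Single tumors differed in how often they alone detected a gland transcript. Of 305 gland transcripts well above background on 1 tumor array, 180 were on T2, 52 on T3, 42 on T1, and 31 on T4. T2 carries a conflicting label and also had the most spots well above background, 76.1%, against 72.2%, 70.9%, and 69.8% in T1, T3, and T4. Why T2 detected more of these transcripts was not tested. Without T2, 542 transcripts met the rule and 64 of the members stayed among the strongest 100.

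The comparison of adjacent with normal gland was not part of the detection contrast, although all 4 gland arrays had to detect each member and the ranking used the N arrays, which favors high N values. None of the 100 members passed the cutoff of the study (fold change of at least 2 and FDR of at most 0.05) between NAT and N with limma, as was true of all 47087 probes tested (0%). The lowest FDR among the members was 0.876, with n = 2 arrays a group. At an unadjusted p under 0.05, 12 of the 100 members differed, against 4.23% of all probes tested. The methods' t-test, at the same fold, called 0 members at an unadjusted p of at most 0.05, against 0.66% of all probes tested, and 0 members and 0 probes after adjustment. The standard error of the difference had a median of 0.60 over the members, on a scale where a 2-fold change is 1.

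The 2 adjacent glands differed from each other. NAT1 lay below both N arrays for 97 of the 100 members, where 42.4% of all probes tested did so. The median NAT1 minus N difference was -1.50 over the members, with quartiles of -1.90 and -0.93, and -0.06 over all probes tested. With normexp background correction and its offset of 50 units, which narrows differences between dim spots, the member median was -0.89, beside -0.26 over all probes. NAT1 was at least 2-fold below the N mean for 70 members and at least 4-fold for 20, compared with 9.79% and 0.966% of all probes tested. The difference in NAT1 was of like size when the members were taken in sets of 25 by N level, with medians of -1.69, -1.53, -1.32, and -1.43 from the highest set to the lowest. It was present in the 262 other transcripts that met the detection rule, with a median of -0.83, and 83.2% of these lay below both N arrays in NAT1. Both sets had to be well above background on NAT1, where the lowest such level was -3.87. The 262 began lower, at a median N level of -2.20 against -0.55 for the members. The rule therefore left the 262 less room to fall.

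NAT2 gave a different picture. It lay below both N arrays for 33 members (31.5% of all probes tested) and above both for 26 (26.9% of all probes tested), shares near those of all probes. The median NAT2 minus N difference was -0.044, with quartiles of -0.45 and 0.19, beside a median N1 minus N2 difference of -0.047. NAT2 was at least 2-fold below the N mean for 3 members and at least 2-fold above for 1, against 3.04% and 3.60% of all probes tested. Both adjacent glands lay below both normal glands for the same 33 members that NAT2 did, against 19.8% of all probes tested and 33.2% of the other 262 transcripts. NAT1 was below both N arrays in nearly all members, so this count adds nothing to that of NAT2. NAT1 was lower than NAT2 for 98 of the 100 members and for 51.2% of all probes tested. The 2 differed at least 2-fold in that direction for 59 members, against 9.88% of all probes tested and 34.7% of the other 262 transcripts. Those 262 had less room above the detection limit of NAT1, so nothing is read from their smaller share.

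**Figure D5:**
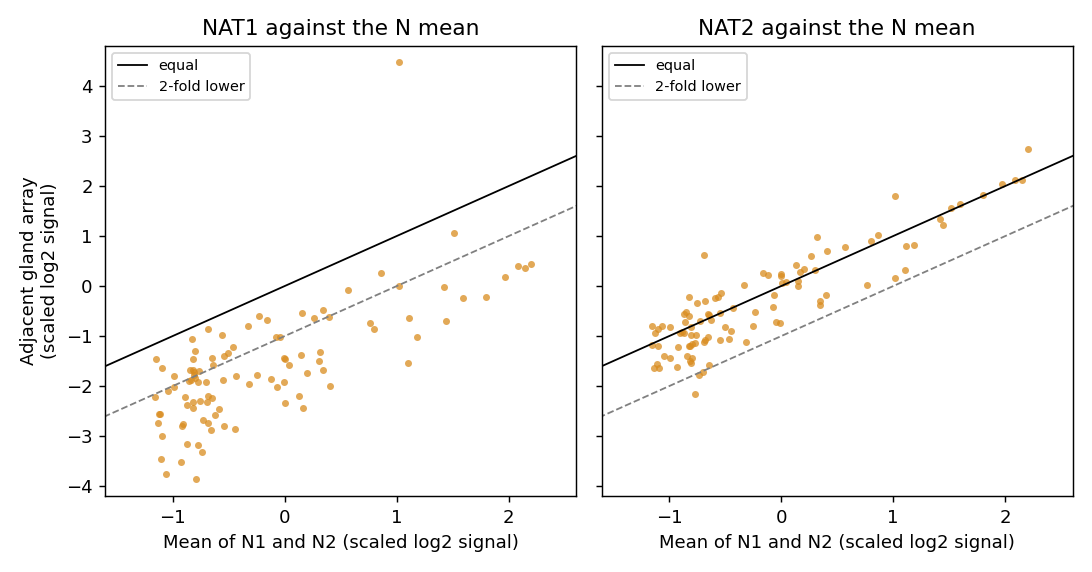
Each point is a member, with its mean level over N1 and N2 on the horizontal axis and its level in NAT1 (left) or NAT2 (right) on the vertical axis, both as scaled log2 signal; the solid line marks equal levels and the dashed line a level 2-fold lower. In NAT1, 97 members lie below both N arrays and 70 lie on or below the dashed line, while in NAT2 the points scatter around the solid line with a median difference of -0.044.

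With NAT1 as the only adjacent gland, the median NAT minus N difference over the members was -1.50. The members were ranked by their N level, which favors a level below N. A group of 1 array also has no spread of its own. The lower level of the members in NAT1 was therefore seen on 1 array, of 1 mouse.

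The gland differences were also taken by the number of tumor arrays that detected a transcript, the measure that had chosen the members. Among gland transcripts well above background on 0, 1, 2, 3, and 4 tumor arrays, numbering 362, 305, 314, 472, and 30355, the median NAT1 minus N difference was -0.94, -0.87, -0.81, -0.69, and -0.12. The quartiles were -1.53 and -0.52 for transcripts detected on 0 tumor arrays and -1.12 and -0.32 for those detected on 3, so these classes overlapped widely. For NAT2 the same medians were -0.02, -0.03, -0.06, -0.06, and -0.02. The classes also differed in level, since those detected on all tumor arrays had a median N level of -0.15 and the other 4 classes between -1.91 and -1.72.

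Measures of RNA and array position were set beside these values. The log2 gap between 5′ and 3′ control probes of Gapdh, a glycolytic enzyme, was -3.07 in N1, -3.58 in N2, -2.39 in NAT1, and -2.94 in NAT2, and -0.42, -0.34, -0.51, and -0.81 in T1 to T4. The gap for Pgk1, another glycolytic enzyme, was -7.70, -8.48, -7.08, and -7.56 in the gland arrays and -4.60, -4.45, -4.93, and -5.78 in the tumors. On both measures the 3′ signal exceeded the 5′ signal by more in each gland array than in each tumor array, and NAT1 was the gland array nearest to the tumors. N1, N2, NAT1, and T1 lay in row 1 of the slide and NAT2, T2, T3, and T4 in row 2, so that NAT1 shared its row with both N arrays. The part of RNA quality or of cell content in the lower NAT1 levels was not tested.

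One member ran against the pattern. ASMM10P027181 measured 1.38 in N1, 0.65 in N2, 4.47 in NAT1, and 1.80 in NAT2, and was the only member with NAT1 above both N arrays. Its intensity of 4024 units in NAT1 was the highest of any member on any array. In T1 to T4 it measured -6.84, -7.13, -5.99, and -6.42, and N exceeded T at least 44.8-fold. The other members with the highest NAT minus N differences were ASMM10P022185 at 0.10, ASMM10P044969 at 0.02, ASMM10P033308 at -0.00, and ASMM10P028774 at -0.04. None of these differences passed the test.

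The members with the lowest NAT minus N differences were ASMM10P033159, ASMM10P050924, ASMM10P013029, ASMM10P011798, and ASMM10P009762. ASMM10P033159 measured -1.83 in N1, 0.29 in N2, -3.17 in NAT1, and -2.15 in NAT2, a difference of means of -1.89. ASMM10P050924 measured -1.25, -0.22, -3.31, and -1.77, a difference of -1.80. ASMM10P013029 measured -1.55, -0.04, -3.86, and -1.16, a difference of -1.72. In these, N2 was the highest gland array and NAT1 the lowest, and in ASMM10P013029 NAT2 lay between the 2 N values. ASMM10P009762 measured -1.63, -0.22, -3.51, and -1.61, a difference of -1.63. None of the 5 passed the cutoff.

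The normal glands were compared with each other in the same way. N1 was above N2 for 49 of the 100, against 51.8% of all probes tested. The 2 N arrays were at least 2-fold apart for 12 members, against 17.6% of all probes tested and 12.0% of those well above background on all 4 gland arrays. The widest gap was in ASMM10P011798, which measured -0.34 in N1, 2.55 in N2, -1.54 in NAT1, and 0.33 in NAT2. Its rank of 12 by mean N level rests on 2 values that were far apart. ASMM10P028820 followed ASMM10P033159 in this order, with -1.55 in N1, 0.25 in N2, -2.87 in NAT1, and -1.03 in NAT2.

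Between the adjacent glands, the widest gap was in ASMM10P025870, which measured -1.30 in N1, -0.82 in N2, -3.75 in NAT1, and -0.79 in NAT2. ASMM10P038828 measured -0.88, -0.50, -2.32, and 0.63 on the same arrays. ASMM10P009809 measured 0.09, 0.24, -2.43, and 0.28. For ASMM10P025870 and ASMM10P009809 NAT1 stood apart and NAT2 was close to the nearer N array, while for ASMM10P038828 NAT1 lay below and NAT2 above both N arrays.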

How the data were processed

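RNA from 8 mouse tissues (N, n = 2; NAT, n = 2; T, n = 4) was labeled by random priming and hybridized to a one-color lncRNA and mRNA array. The authors deposited scanner output of Agilent Feature Extraction 11.0.1.1: spot intensity on a linear scale, background-subtracted and not normalized between arrays, and detection flags. A second table that they deposited holds log2 values for 42830 probes, all 100 members among them, whose normalization is not given in the sources used here. No columns of the authors' own comparisons were used.

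Each array held 62939 spots, 61500 of them noncontrol. Levels were log2 processed intensity minus the 75th percentile of noncontrol probes. Probes with no outlier flag that were well above background on 2 or more arrays, 47087 in all, entered 1 limma fit of the 3 groups (version 3.58.1, R version 4.3.3, lmFit and eBayes, Benjamini-Hochberg adjustment), after the steps were tested on simulated data. No member was saturated. Python 3.11.15 was used for tables and figures. The number of arrays limits the precision. By the study's text the NAT replicates came from separate mice, but the source label of NAT2 leaves this uncertain.

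The members and lists were chosen with earlier results of these data known. Named transcripts were the 10 highest in N, 3 on each side of rank 100, the 5 highest and 5 lowest NAT minus N differences, the 3 largest gaps within N and within NAT, and the 3 nearest to detection in T. Gene lists and cell type markers were not run, for want of gene names.

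NAT1 and T1, and NAT2 and T2, are tissues of the same mouse per the study's text, and the N arrays are their littermates. Deviations from group means gave correlations of -0.0949 for NAT1 with T1, -0.249 for NAT2 with T2, and 0.149 for N1 with NAT1. The alternatives were normexp background correction with an offset of 50 units, other scalings, filters, and tests, and the deposited log2 table. They also took in the replicate block, the slide row (added after the data were seen), and leaving out each array.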

Additional observations from a re-analysis of the deposited data

How the results depend on the processing

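No member passed the cutoff between NAT and N under any setting run, with the replicate block (0 members) included. The median NAT minus N difference of -0.80 was -0.80 in the fit with the replicate block, which changed no other call, and -1.14 with slide row as a term. It ran from -1.50 without NAT2 to -0.044 without NAT1, and was -0.18 with no scaling, where the median of all probes was 0.59. With no scaling, the NAT2 difference of -0.044 became 0.61, below a shift of 0.65 over all probes. With normexp and its offset of 50 units, the NAT1 difference of -1.50 became -0.89. The median log2 bound of N over T, 3.92, became 1.96. With tumor signals as measured, under the detection limit and so no bound, the N minus T median was 5.62. The median log2 bound of NAT over T, 3.37, was 2.74 without NAT2 and 3.92 without NAT1, a comparison added after the data were seen. The detection rule, met by 362 transcripts, was met by 115 with the looser flag on all arrays, 33 with the looser flag in the tumors, and 667 where 1 tumor array could detect the transcript. When 1 array was left out, it was met by 366 to 542, and 64 to 100 of the members stayed among the strongest 100, with 64 without T2 and 66 without T3. For the 31 named transcripts, 3 of them just outside the members, the sign of the NAT minus N difference changed in 26 of 279 combinations with a setting, which fell on 16 of them. Signals near background limit what the tumor arrays can show.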
